A study of Mus musculus with 15 samples.

Results

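The nuclear genes of the mitochondrial respiratory chain and of ATP synthase were followed in 6 RNA libraries of cultured mouse pre-B cells, 3 titled wild type and 3 titled Msl2 knockout. Members were all protein-coding genes whose symbols begin with Nduf (a, b, c, s or v series), Uqcr, Cox4 to Cox8 or Atp5, together with Sdha to Sdhd and Cyc1. Of 108 identifiers that match these names, 12 were left out as pseudogenes or by a pseudogene symbol, 96 were protein-coding, and 89 of these had enough reads to be tested, out of 13077 tested genes in all. The 7 others were Cox4i2, Cox6b2, Cox7b2, Cox8b, Cox8c, Ndufb4c and a second identifier of Atp5o, none of which had more than 9 reads in any library.

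Per the labels, both groups lack SLP65, the signalling adaptor encoded by Blnk, and descend from bone marrow cells grown from a single cell in IMDM medium with serum and IL7, with no treatment. The knockout line was made from them by electroporation with a guide RNA against Msl2, so each genotype is 1 line. Strain and age are not given, and nothing says that replicates were separate cultures, so the tests see the spread among libraries of 1 line, part of which may be technical. The genotype tags contradict the titles in all 6 libraries, and every direction below follows the titles. MSL2 is the ubiquitin ligase subunit of MSL, a complex that acetylates histone H4, and the comparison asked what changes in RNA when it is disrupted. Msl2 RNA was at 97.1, 99.3 and 92.3 CPM (reads per 1000000 after scaling) in the wild type and at 105, 103 and 121 CPM in the knockout. It was thus higher in each knockout library without passing the test (edgeR quasi-likelihood, Benjamini-Hochberg adjusted p 0.302), and its level does not check the titles.

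The respiratory chain passes electrons from NADH (complex I) or succinate (complex II) through coenzyme Q, complex III and cytochrome c to oxygen at complex IV. Complexes I, III and IV pump protons out of the mitochondrial matrix, and ATP synthase lets them back through a rotating ring to make ATP. Most subunits are encoded in the nucleus and a few catalytic ones in mitochondrial DNA, so the parts must be made in matching amounts from both genomes. Growing lymphocytes use this system beside glycolysis.

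Total reads ran from 14092278 to 20803227 per library. Summed markers of pre-B cells (7 genes, among them Cd79a and Vpreb1) were at 1920 to 2040 CPM of total reads in the wild type and 1931 to 1988 in the knockout, and 0 of 7 were called. Markers of 5 other cell sources were each at 7.31 CPM or less in sum, and 0 of the 5 of these genes that could be tested were called. Lyz2, Elane, S100a8, S100a9, Ncr1, Pdgfra, Pdgfrb, Cxcl12, Myh7 and Actc1 had no read.

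Against this background a single member passed the test. Atp5a1, which encodes the alpha subunit of the F1 head of ATP synthase, fell in the knockout, while the other 88 tested members passed the test in neither direction. That is 1 of 89 members, or 1.12%, where 4.59% of all tested genes were called (2.79% lower and 1.8% higher). At an unadjusted p under 0.05 there were 12 members lower and 0 higher, and over all genes such values were 8.43% lower and 6.94% higher. With 1 library left out, 4 to 15 of 89 members had such a p in either direction, against 12.5% to 16.1% of all tested genes. The count was 4 without knockout replicate 2 and 6 without wild-type replicate 3. The differences were also small. The 95% interval of the fold change stayed within 1.5-fold either way for 85 of 89 members, against 62.5% of all tested genes, many of which have fewer reads. The 4 exceptions were Atp5a1 and 3 genes with few reads, Cox6a2, Cox7a1 and Ndufa4l2. RNA was measured in bulk, so fewer cells making a transcript and less of it per cell cannot be told apart.

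**Figure D1:**
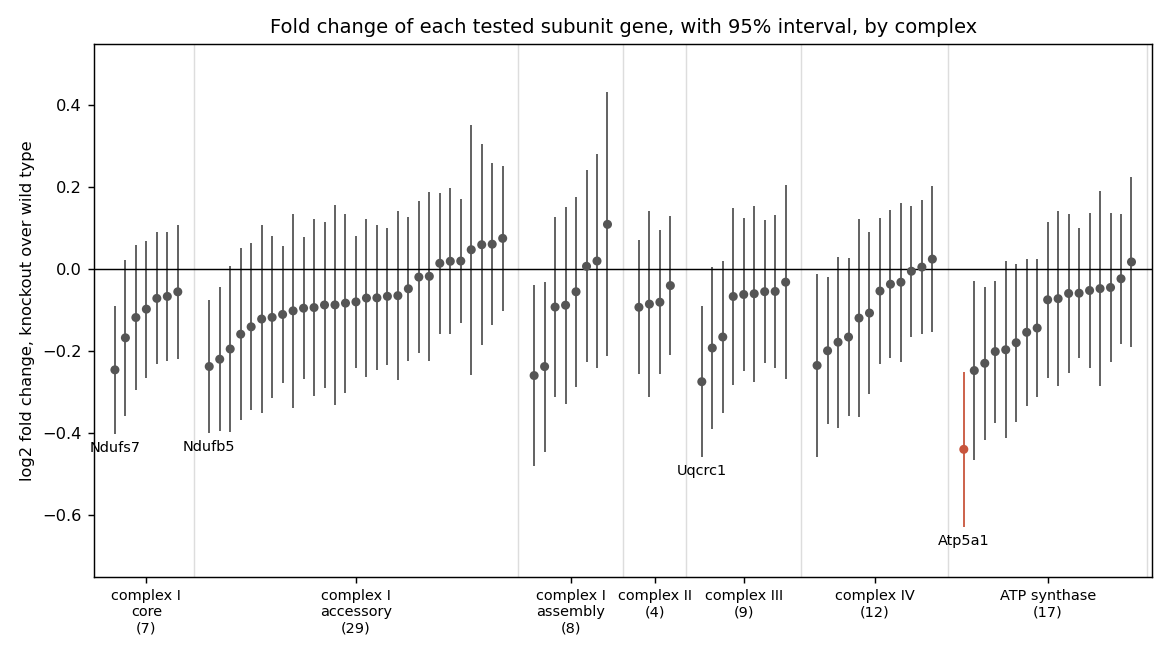
Log2 fold change (knockout over wild type, y axis) of 86 tested members grouped by complex, with the number of genes in parentheses; points are fitted values, lines are 95% intervals, and red marks the called gene. Cox6a2, Cox7a1 and Ndufa4l2, all under 5 CPM, are left out of the plot for their wide intervals. Most points lie just below 0, and Atp5a1 at -0.44 stands lowest.

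Atp5a1 (ENSMUSG00000025428.15, chromosome 18, 77773768 to 77782869, mm10) was at 1612, 1621 and 1847 CPM in the wild type (replicates 1 to 3 in order, here and throughout) and at 1197, 1257 and 1292 CPM in the knockout. All 3 knockout libraries lay below all 3 wild-type libraries. The means were 1693 ± 134 and 1249 ± 48 CPM, a log2 fold change of -0.44 ± 0.09 (SE, adjusted p 0.0153), or 1.36-fold lower. Atp5b encodes the beta subunit, which alternates with alpha around the F1 head and carries the catalytic sites. It was at 2083, 1989 and 2259 CPM in the wild type and at 2047, 2001 and 2093 CPM in the knockout, and the groups overlapped. Its log2 fold change was -0.04 ± 0.08 (SE, adjusted p 0.889), with a 95% interval from -0.23 to 0.14. The call of Atp5a1 was lost without knockout replicate 2 (adjusted p 0.0772), with a log2 fold change of -0.44 there and between -0.475 and -0.37 when any other library was left out.

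The ratio of Atp5a1 reads to Atp5b reads does not depend on how libraries are scaled. It was 0.774, 0.815 and 0.818 in the wild type and 0.585, 0.628 and 0.617 in the knockout. The ratio was therefore lower in each knockout library than in any wild-type library, at 0.802 ± 0.025 and 0.61 ± 0.023. This ratio was chosen after its values were seen. A two-sided exact permutation test gave p = 0.1, the smallest that 3 against 3 libraries allow. Adjusted over the 4 within-library ratios whose p is given, it was 0.133. The rest of these ratios are the shares within a gene family, described below, and are not independent. The same test was also computed for other library quantities, among them the Cox6a2 and Cox7a1 shares, which this adjustment leaves out.

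**Figure D2:**
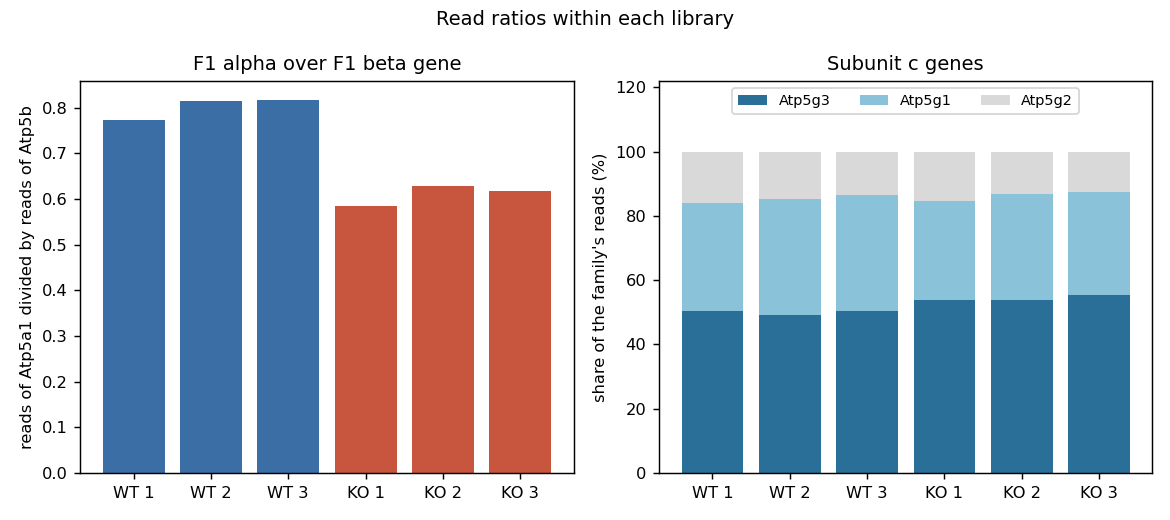
Left, reads of Atp5a1 divided by reads of Atp5b in each library (WT, wild type, blue; KO, knockout, red). Right, share of reads (%) that each of the 3 subunit c genes took in each library; Atp5a1 to Atp5b ratios are 0.774 to 0.818 in wild type and 0.585 to 0.628 in knockout, and the Atp5g3 share is above 53% in each knockout library only.

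The annotated span of Atp5a1 shares 118 bases with that of Haus1, a subunit of the augmin complex of the mitotic spindle. Haus1 was at 39, 38.4 and 41.7 CPM in the wild type and at 34.7, 33 and 29.3 CPM in the knockout. Its groups did not overlap, but its log2 fold change of -0.29 ± 0.09 (SE) did not pass the test (adjusted p 0.117). On the other side of Atp5a1, Pstpip2, an adaptor that binds membranes and the cytoskeleton, fell from 1.81 to 0.25 CPM (adjusted p 0.0071). Pstpip2 reads were scarce. Wild-type libraries held 1.7, 2.2 and 1.53 CPM of it, and knockout libraries held 0.25, 0.42 and 0.07 CPM. For scale, 3 reads correspond to 0.186, 0.144 and 0.197 CPM of total reads in the knockout libraries. The size of the Pstpip2 fall is therefore poorly determined. The other 3 tested genes whose starts lie within 500 kb, 8030462N17Rik, Epg5 and Slc14a1, had adjusted p of 0.834, 0.896 and 0.899. These neighbours were chosen after the Atp5a1 value was seen. Since the strand setting is not known, reads in the shared stretch cannot be assigned to Haus1 or Atp5a1.

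**Figure D3:**
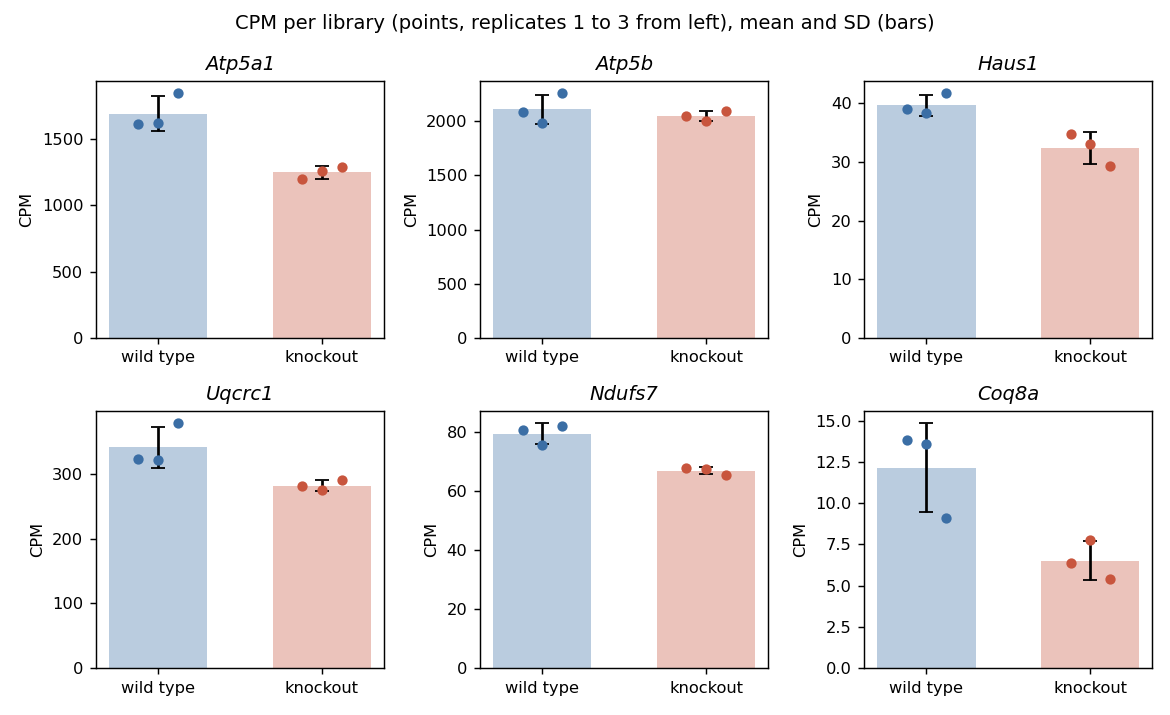
CPM in each library (points, replicates 1 to 3 from left to right) with the mean (bars) and SD (error bars, n = 3) for Atp5a1, Atp5b, Haus1, Uqcrc1, Ndufs7 and Coq8a in wild type (blue) and knockout (red). In Atp5a1, Haus1, Uqcrc1, Ndufs7 and Coq8a all knockout points lie below all wild-type points, and in Atp5b the groups overlap; Atp5a1 and Coq8a passed the test.

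The other 16 tested ATP synthase genes had 0 calls, and their log2 fold changes, 15 of them negative, lay between -0.25 and 0.02 with a median of -0.07. Atp5s, which RefSeq lists as Dmac2l, is counted among them by its name. Atp5e encodes the small epsilon subunit of the central stalk. It was at 123, 126 and 143 CPM in the wild type and at 120, 107 and 107 CPM in the knockout, a log2 fold change of -0.23 ± 0.08 (SE, adjusted p 0.2). Atp5c1, for the gamma shaft, was at 360 ± 26 and 326 ± 2.9 CPM (adjusted p 0.435), and Atp5f1, for the b subunit of the outer stalk, at 400 ± 32 and 359 ± 14 CPM (adjusted p 0.429). In all 3 genes the knockout libraries lay below the wild-type libraries without passing the test. In sum, the 16 genes other than Atp5a1 were at 4624 ± 353 CPM in wild-type and at 4361 ± 67 CPM in knockout libraries.

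Subunit c, the repeating unit of the proton-driven ring, is encoded by 3 genes, Atp5g1, Atp5g2 and Atp5g3, whose precursors differ mainly in the import signal and yield the same mature protein. Atp5g1 was at 201, 217 and 258 CPM in the wild type and at 177, 193 and 199 CPM in the knockout. The groups did not overlap, but the log2 fold change of -0.25 ± 0.10 (SE) did not pass the test (adjusted p 0.247) and was -0.14 without wild-type replicate 3. Atp5g2 was at 92.9 ± 4.2 and 80.8 ± 5.7 CPM (adjusted p 0.234), and Atp5g3 at 318 ± 37 and 322 ± 18 CPM (adjusted p 0.966). Within each library, Atp5g3 took 50.3%, 49.2% and 50.5% of the reads of the 3 genes in the wild type and 53.8%, 53.9% and 55.3% in the knockout. Atp5g1 took 33.8%, 36.1% and 36.1% in the wild type and 30.9%, 32.9% and 32.2% in the knockout. For both shares the groups did not overlap, and the two-sided exact permutation p was 0.1 (0.133 adjusted over 4 ratios), the smallest possible. The share of Atp5g2 overlapped between groups (14.7 ± 1.3% and 13.7 ± 1.4%, exact permutation p 0.4). These genes share much of their coding sequence, so their reads may be divided uncertainly among them.

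Complex III, which hands electrons from coenzyme Q to cytochrome c, had 9 tested genes, all with negative log2 fold changes and 0 called (median -0.06). Uqcrc1, a core subunit related to mitochondrial processing peptidases (chromosome 9, 108936648 to 108949641), was at 324, 322 and 378 CPM in the wild type and at 281, 275 and 291 CPM in the knockout. The groups did not overlap, yet the log2 fold change of -0.27 ± 0.08 (SE) missed the threshold (adjusted p 0.105). It passed in DESeq2 (adjusted p 0.0363) and without the low-count filter (0.0463). Uqcrb, a small subunit near the quinone site, was at 101 ± 11 and 88.3 ± 2.3 CPM (adjusted p 0.341). Of the electron-carrying subunits, Cyc1, cytochrome c1, was at 149 ± 20 and 143 ± 5 CPM (adjusted p 0.869) and Uqcrfs1, the Rieske iron-sulfur protein, at 177 ± 17 and 170 ± 5.9 CPM (adjusted p 0.864).

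Complex I, the NADH dehydrogenase, had 7 tested nuclear genes of the catalytic core, 30 accessory genes and 8 assembly factors, with 0 called among them. All 7 core genes had negative values (median -0.10). Ndufs7, which holds the last iron-sulfur cluster before coenzyme Q, was at 80.5, 75.4 and 82.1 CPM in the wild type and at 67.8, 67.6 and 65.4 CPM in the knockout. Its groups did not overlap, and its log2 fold change was -0.25 ± 0.07 (SE, adjusted p 0.0871), between -0.28 and -0.22 without any 1 library. Ndufv2, of the NADH-oxidising module, was at 132, 130 and 150 CPM in the wild type and at 131, 124 and 113 CPM in the knockout (adjusted p 0.411), with overlap.

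Among the 30 accessory genes, counted with the low-count Ndufa4l2, 23 had negative values (median -0.08). Ndufb5 was at 95, 85.8 and 96.5 CPM in the wild type and at 77.1, 79.9 and 78.1 CPM in the knockout (log2 -0.24 ± 0.07, SE, adjusted p 0.114). Ndufa3 was at 50 ± 2.3 and 43 ± 1.8 CPM (adjusted p 0.188). In both the knockout libraries lay below the wild-type libraries. Ndufa10, the accessory gene with the most reads, was at 179 ± 12 and 171 ± 5.4 CPM (adjusted p 0.791). Of the 8 assembly factors, which build the complex but are not part of it, 5 had negative values. Ndufaf2 was at 21.2 ± 1.7 and 17.7 ± 0.25 CPM (adjusted p 0.223) and Ndufaf1 at 28.2 ± 1.2 and 24 ± 1.7 CPM (adjusted p 0.241), again with no overlap. Ndufaf4 was at 92.2 ± 10 and 92.7 ± 10 CPM (adjusted p 0.99).

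Complex II, the succinate dehydrogenase shared with the citrate cycle and encoded wholly in the nucleus, showed the narrowest range of values. Its 4 genes had log2 fold changes between -0.09 and -0.04, and 0 were called. Sdha, the flavoprotein that oxidises succinate, was at 360, 349 and 349 CPM in the wild type and at 317, 320 and 354 CPM in the knockout (adjusted p 0.658). Sdhb, the iron-sulfur subunit, was at 239, 245 and 280 CPM and at 235, 241 and 246 CPM (adjusted p 0.745). Both pairs of groups overlapped.

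Complex IV, cytochrome c oxidase, had 14 tested genes, 10 of them with negative values (median -0.04), and 0 called. Ndufa4, named for complex I but a subunit of complex IV, is counted here and was at 218 ± 22 and 203 ± 13 CPM (adjusted p 0.681). Cox5b, a subunit facing the matrix, was at 180, 169 and 197 CPM in the wild type and at 165, 149 and 161 CPM in the knockout (log2 -0.20 ± 0.08, SE, adjusted p 0.26). Cox7b was at 190, 187 and 236 CPM and at 185, 173 and 162 CPM (adjusted p 0.293), and its log2 fold change went from -0.23 to -0.12 without wild-type replicate 3. In both genes the groups did not overlap. Cox4i1, the form of subunit 4 found in most tissues and the tested complex IV gene with the most reads, was at 312 ± 25 and 300 ± 11 CPM (adjusted p 0.86).

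Several complex IV subunits exist in a form found in most tissues and a form of heart and muscle or of other special tissues. In reads, not adjusted for transcript length, the common forms far outnumbered the others. Cox6a2 had between 16 and 78 reads per library beside 2522 to 3875 of Cox6a1, and Cox7a1 between 38 and 84 beside 2659 to 4013 of Cox7a2. Cox6a2 reads were 1.08 ± 0.58% of the pair in the wild type and 1.45 ± 0.92% in the knockout, and Cox7a1 reads 1.87 ± 0.26% and 1.95 ± 0.59% of theirs. Cox4i2, the partner of Cox4i1 in lung and in low oxygen, had 1 read in each wild-type library and 9, 7 and 1 in the knockout libraries. Cox6b2, of testis, had at most 2 reads in a library beside at least 2651 of Cox6b1. Ndufa4l2, a relative of Ndufa4 induced in low oxygen and counted here with the complex I accessory genes by its name, had 11 to 34 reads. The log2 fold change of Cox6a2 was 0.51 ± 0.51 (SE), the highest value among members and no larger than its error, and that of Ndufa4l2 was -0.14 ± 0.36 (SE). Cox6a1 (adjusted p 0.945), Cox6a2 (0.75), Cox6b1 (0.933), Cox7a1 (0.965), Cox7a2 (0.912), Cox7a2l (0.717) and Ndufa4l2 (0.929) did not pass the test.

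Across the complexes, small negative values prevailed, and they moved with 1 library. Of 89 members, 74 had a negative log2 fold change (median -0.07), against 49% of all tested genes (median 0.00). In 17 members the knockout libraries lay wholly below the wild-type libraries (19.1%, against 11.2% of all tested genes), and in 0 members wholly above (against 9.68%). Wild-type replicate 3 had the highest CPM of the 6 libraries in 75 members (84.3%), against 22.2% of all tested genes. Without it, 49 of 89 members had negative values (55.1%), the median was -0.01, and among the 5 libraries groups did not overlap in 17 members with lower and 13 with higher knockout values, against 16.9% and 17.5% of all tested genes. The medians without it were 0.02 for complex I assembly factors and 0.01 for complexes III and IV. They were near 0 for complex I accessory genes (-0.00673) and complex II (-0.00385), and further below 0 for ATP synthase (-0.08) and the complex I core (-0.05). Atp5a1 was still called (log2 -0.37, adjusted p 0.0343).

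The same library stood out in every complex. Relative to each gene's mean over 6 libraries, the median member was at 0.17 on the log2 scale in wild-type replicate 3 and between -0.06 and 0.00 in the other 5 libraries, while the median of all tested genes was between -0.01 and 0.00 in each. The median in wild-type replicate 3 was 0.13 for the complex I core, 0.15 for its accessory genes, 0.18 for its assembly factors, 0.13 for complex II, 0.25 for complex III, 0.16 for complex IV and 0.18 for ATP synthase. Counted without any scaling, members took 1.41%, 1.39% and 1.51% of all reads in the wild type and 1.34%, 1.34% and 1.33% in the knockout. Unscaled reads of the 13 mitochondrially encoded subunits, summed, did not single it out, at 0.765%, 0.737% and 0.762% in the wild type and 0.728%, 0.711% and 0.745% in the knockout. Most of these reads came from mt-Co1, and mt-Nd4l, mt-Atp6 and mt-Atp8 were not tested. In scaled CPM mt-Co1 was at 6507, 6065 and 6803 in the wild type and at 6101, 5827 and 6229 in the knockout, highest in wild-type replicate 3. The next most abundant, mt-Nd1, was highest in knockout replicate 3 (627 CPM). Wild-type replicate 3 also had the lowest TMM factor, at 0.956 against 0.995 to 1.03. With all 6 libraries scaled by totals alone, 71 of 89 members had negative values, against 44.3% of all tested genes. With RLE scaling 73 had, against 47.9%. The cause of the higher member levels in that library was not tested.

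**Figure D4:**
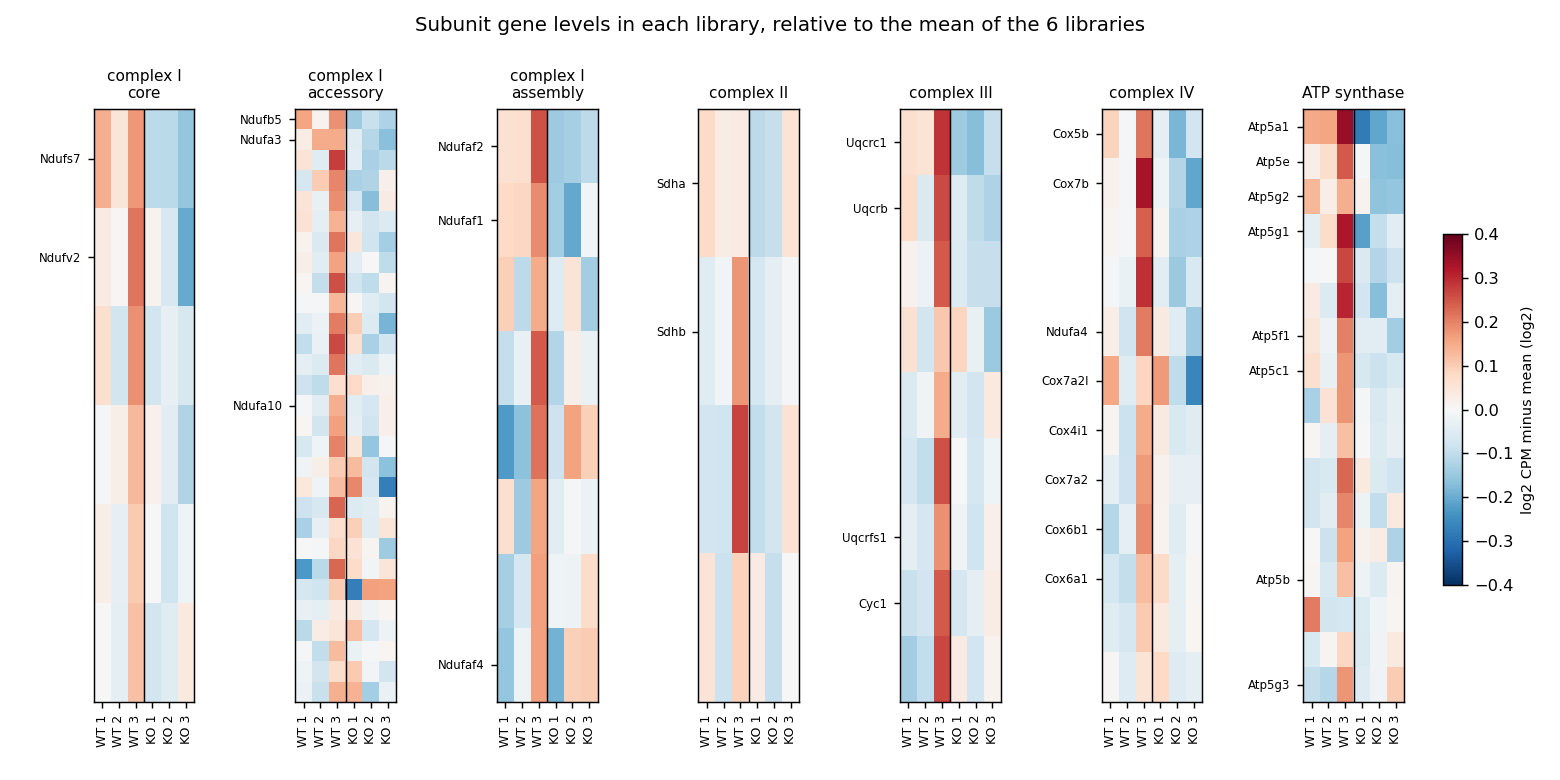
Level of each of 85 members in each library (columns; WT, wild type; KO, knockout), as log2 CPM minus the gene's mean over 6 libraries (colour, red above and blue below the mean), by complex; members named in the text are labelled. Left out are 3 members under 5 CPM (Cox6a2 and Cox7a1, below their means in wild-type replicate 3, and Ndufa4l2) and 1 of the complex I core not reported here. The column of wild-type replicate 3 is red in nearly every row, with medians over all members of a complex from 0.13 to 0.25, and Atp5a1 is red in all 3 wild-type and blue in all 3 knockout columns.

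Other genes of the pathway were read from the same fit. Of 92 listed, 85 were found in the files and 78 tested, and 1 was called lower and 0 higher. The called gene was Coq8a, an atypical kinase-like protein needed for coenzyme Q synthesis (chromosome 1, 180165238 to 180196020). It was at 13.8, 13.6 and 9.09 CPM in the wild type and at 6.4, 7.75 and 5.41 CPM in the knockout. The groups did not overlap, with wild-type replicate 3 nearest to the knockout, and the log2 fold change was -0.89 ± 0.20 (SE, adjusted p 0.0316). The call was lost when scaling used totals alone (adjusted p 0.0635) or genes under a mean log2 CPM of 2 were dropped (0.0545). It was also lost when wild-type replicate 1 (0.115), wild-type replicate 2 (0.104), knockout replicate 1 (0.0816) or knockout replicate 3 (0.0824) was left out. Coq9, a lipid-binding protein of the same pathway, was at 56.9, 48.1 and 50.4 CPM and at 43, 41.7 and 37.6 CPM (log2 -0.34 ± 0.09, SE, adjusted p 0.0704). Its groups did not overlap, and it passed in DESeq2 (adjusted p 0.0475) and without the low-count filter (0.0208). Cycs, cytochrome c itself, was at 141 ± 22 and 130 ± 7 CPM (adjusted p 0.709).

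Assembly factors of the 5 complexes had 0 calls among 42 tested genes, with 4 at an unadjusted p under 0.05, against 15.4% of all tested genes. These were Tmem186 of complex I (41.7 ± 2.6 and 34.8 ± 1.3 CPM, adjusted p 0.133), Uqcc3 of complex III (12.4 ± 0.77 and 9.59 ± 0.26 CPM, 0.135), Tmem242 of ATP synthase (15.8 ± 1.3 and 12.5 ± 1.2 CPM, 0.187) and Cox18 of complex IV (22.8 ± 1.7 and 19.4 ± 1 CPM, 0.306). In these 4, picked by their p, the knockout libraries lay below the wild-type libraries. The same held for Coa5 and Cox15 of complex IV (adjusted p 0.385 and 0.387). Over all tested genes this order was seen in 11.2% and its opposite in 9.68%. Fmc1, of ATP synthase assembly, had the opposite order (21.3 ± 1.9 and 24.6 ± 0.91 CPM, adjusted p 0.361). The other genes with the smallest p in each list were Dmac1 of complex I (adjusted p 0.383), Sdhaf4 and Sdhaf1 of complex II (0.681 and 0.857), Uqcc1 of complex III (0.869) and Coa5 of complex IV (0.385). Of 14 tested regulators of mitochondrial genes, 0 were called and 0 had an unadjusted p under 0.05. The smallest p belonged to Twnk, the helicase that unwinds mitochondrial DNA (41.8 ± 1.7 and 36.5 ± 3.5 CPM, no overlap, adjusted p 0.348), and Tfb2m, a mitochondrial transcription factor (23.1 ± 0.68 and 19.1 ± 3.6 CPM, adjusted p 0.354). Gabpb1, of the same list, did not overlap in the other direction (39.8 ± 2.6 and 43.3 ± 0.81 CPM, adjusted p 0.576). Nrf1, a factor for many respiratory genes, was at 92.6 ± 7.3 and 98.2 ± 4.1 CPM (adjusted p 0.724), and Tfam, which packages and transcribes mitochondrial DNA, at 98.7 ± 5.9 and 98.4 ± 5.6 CPM (adjusted p 0.99). Yy1, the factor named in the study's title, was at 98.5 ± 14 and 107 ± 8.9 CPM (adjusted p 0.711). Of 10 tested mitochondrially encoded subunits, 0 were called and 0 had an unadjusted p under 0.05. Among them mt-Nd5 was at 129 ± 14 and 117 ± 5.6 CPM (adjusted p 0.517) and mt-Nd2 at 56.9 ± 0.9 and 63.4 ± 8.6 CPM (adjusted p 0.55).

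**Figure D5:**
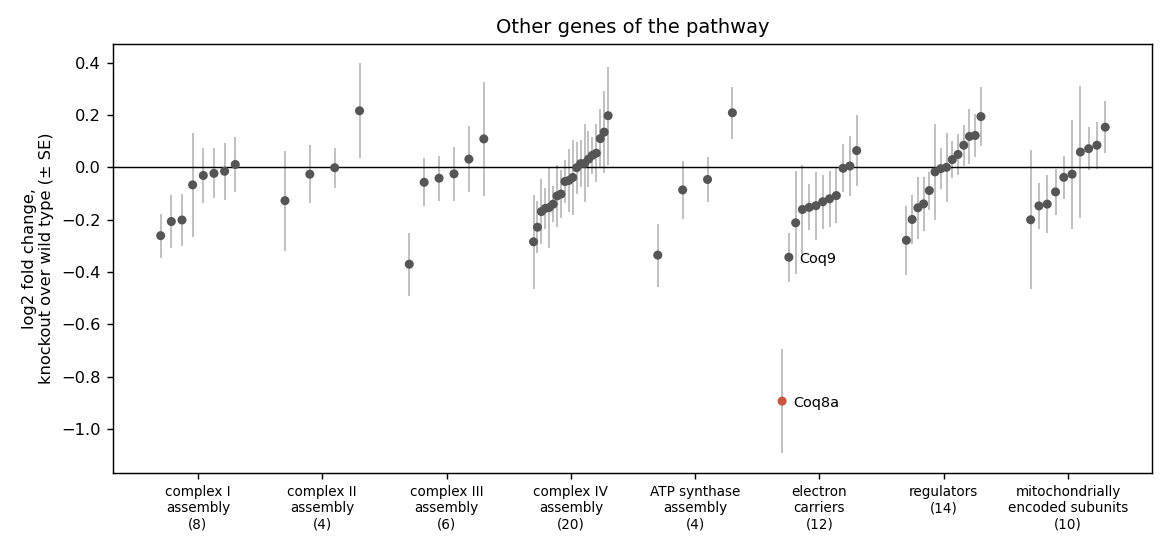
Log2 fold change (knockout over wild type, y axis) of 78 other tested genes of the pathway by list, with the number of genes in parentheses; points are fitted values, lines are ± SE, and red marks the called gene. Coq8a at -0.89 lies apart, and Coq9 at -0.34 is the next lowest of the electron carrier list.

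Promoters were searched because the study concerns YY1, whose binding was measured in the chromatin samples not analysed here. RefSeq promoters (GRCm38.p6, 250 bases before to 50 after the start) were at hand for 73 of 89 members, and not for Atp5a1. The YY1 core ATGGCG, on either strand, was in promoters of 20 of 73 members (27.4%), against 18.8% of 8881 tested genes with a promoter in the table. The site of NRF1 (GCGC, any base, then TGCGC, on either strand) was in 19 (26%, against 12.3%), and the ETS core CCGGAAG of the kind GABPA binds, on either strand, in 18 (24.7%, against 22.1%). Members with a YY1 match had a median log2 fold change of -0.09 and those without it of -0.08, and both medians were -0.08 for NRF1. For ETS they were -0.07 with a match and -0.09 without. Negative values were found in 15 of 20 members with a YY1 match and 44 of 53 without. For NRF1 these were 13 of 19 and 46 of 54, and for ETS 16 of 18 and 43 of 55. Counted per promoter, 11 of 24 YY1 matches lay after the start (45.8%, against 39.8% for tested genes). Among members whose levels are described above, NRF1 matches not shown here were also in Atp5g2, Atp5c1, Sdha, Ndufaf4, Atp5g3 and Cox6a1. Their log2 fold changes were -0.20, -0.14, -0.09, 0.01, 0.02 and 0.02, in this order. The YY1 matches of members described above, and the NRF1 matches of Uqcrc1, the member with the second-lowest fold change, are shown in 30-base stretches with the match in capitals.
Atp5c1, chr2:10080615-10080644, minus strand: tccgacttgcccATGGCGaccctgagcgct
Ndufb5, chr3:32737070-32737099, plus strand: gccggtgtagccATGGCGgccatgagcctg
Cox6a1, chr5:115348930-115348959, minus strand: tgtagttccatgATGGCGtcggcggtgctg
Ndufs7, chr10:80249464-80249493, plus strand: gccgaggccaagATGGCGgcgctggcgggt
Atp5b, chr10:128083311-128083340, plus strand: ccacccggattcCGCCATgttgagtcttgt
Uqcrc1, chr9:108936643-108936672, plus strand: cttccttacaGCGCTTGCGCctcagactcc
Uqcrc1, chr9:108936668-108936697, plus strand: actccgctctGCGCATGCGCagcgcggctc
The first base of the Atp5c1 match lies at -122 from 1 of its annotated starts and at -200 from another. In the other stretches it lies at 20, 12, 28, 17, 6 and 31 after the start, in this order, counting the start as 1. ATGGCG also spells a start codon followed by a codon for alanine, and the table does not mark where translation begins. A match is a string of letters in the reference and not evidence of binding. Of the genes shown with the YY1 letters, Ndufs7, Ndufb5, Atp5c1 and Atp5b had log2 fold changes of -0.25, -0.24, -0.14 and -0.04, and Cox6a1 of 0.02.

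Annotated spans of 28 members overlap another gene, among them Cox6a2 (Itgad) and Ndufa4l2 (Shmt2), and reads there cannot be assigned without strand. Ndufb1-ps was left out by its symbol although RefSeq lists it as the protein-coding Ndufb1, of complex I. It was at 35.3 ± 2.99 and 38.6 ± 3.91 CPM (adjusted p 0.661).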

How the data were processed

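The authors deposited 1 table of raw counts per gene for each of 6 RNA libraries, as whole numbers without normalisation, per the file headers. Per the submitters' processing notes the tools include STAR 2.5.3a and featureCounts 2.0.0, and the build is mm10. Per the labels' protocols, ribosomal RNA was removed from total RNA. The sources used here do not state the annotation release, the strand setting or how multiply mapped reads were handled. The 9 chromatin samples were not analysed here.

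Symbols came from a table of gene names, and gene types and positions from RefSeq (GRCm38.p6, which is mm10), by symbol or unique synonym. Genes kept by filterByExpr were scaled by TMM, and the groups were tested in edgeR 4.0.16 under R 4.3.3 by quasi-likelihood without covariates. Adjusted p (Benjamini-Hochberg) are over all 13077 tested genes, and a gene was called under 0.05. CPM use TMM-scaled library sizes, and values are mean ± SD over 3 libraries unless marked SE. SE came from the fold change and the F statistic. Totals ran from 14092278 to 20803227 reads per library, and no molecular identifiers are named, so counting intervals would not cover amplification. Genes named are called members, per complex the smallest 2 p and the highest CPM, paralog families, Msl2 and, per list of other pathway genes, those called and up to 2 with the smallest p. Any other gene named (such as Cyc1, Uqcrfs1, Atp5c1, Atp5f1, Cycs, Nrf1, Yy1 or Tfam) was chosen after its values were seen. Of the genes this rule names, 1 of the complex I core is not reported here. Members and lists were chosen with earlier results of these data known.

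Alternatives were DESeq2 1.42.0, voom in limma 3.58.1, RLE scaling, unscaled totals, no low-count filter, dropping genes under a mean log2 CPM of 2, a block for the replicate number, and omission of single libraries. The test was also tried on simulated counts with known changes, built from the levels and spread of these data. At 1.35-fold it recovered 27.1% of 48 changed genes, and 40% of the 20 about as abundant as the members or more so. At 1.5-fold these were 50% of 50 and 93.8% of 16. A member that did not pass was therefore not shown to be unchanged.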

Additional observations from a re-analysis of the deposited data

How the results depend on the processing

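The direction of Atp5a1 held under all 13 alternatives and its call under 12, the exception being the fit without knockout replicate 2 (adjusted p 0.0772, and 4.72e-06 to 0.044 elsewhere). Uqcrc1 joined it, giving 2 members lower, without the low-count filter, in DESeq2 and with the replicate number as a block. Leaving out each library gave 0 to 1 members lower and 0 higher. Other pathway genes called lower were 0 when scaling used totals alone or genes under a mean log2 CPM of 2 were dropped, and 2 (Coq8a and Coq9) without the filter, in DESeq2 and with the replicate block, and 0 to 1 without each library. Over all genes, 482 were higher and 721 lower without the filter, which tests 26696 genes, 195 lower with the stricter filter, 381 higher and 565 lower with the replicate block, and 138 to 227 higher and 242 to 316 lower without each library. Replicate numbers were not shown to pair the libraries. Same-numbered libraries had correlations of 0.0294, 0.212 and 0.403 between their deviations, and wild-type replicate 1 went best with knockout replicate 2.

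The member median ran from -0.114 to -0.00775 without each library, that of complex I accessory genes from -0.116 to -0.00673, and negative members from 49 to 80 of 89. Signs of some named members, none of them called, turned without single libraries, over ranges of -0.0663 to 0.0978 (Ndufaf4), -0.108 to 0.0131 (Cox4i1), -0.0864 to 0.00938 (Atp5b), -0.0353 to 0.12 (Atp5g3), -0.017 to 0.0987 (Cox6a1), -0.106 to 0.929 (Cox6a2), -0.0944 to 0.0641 (Cox6b1), -0.176 to 0.274 (Cox7a1), -0.0873 to 0.0459 (Cox7a2) and -0.328 to 0.157 (Ndufa4l2). The cause of these shifts was not tested. With 3 libraries a group at this depth, the median SE of a member's log2 fold change was 0.0864, which limits the size of difference that could be detected.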
